A study of Homo sapiens with 18 samples.

Results

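L1MA and L1MB are 2 neighbouring branches of old LINE-1 (L1) elements, and their copies were taken from both deposited tables as every row whose repeat name begins with L1MA or L1MB. They made up 61193 of the 1996647 repeat copies in the Nutlin table and 85592 of the 2404193 in the 5-FU table, and 56354 of them were listed in both. They carried 19 names, 12 of them L1MA and 7 L1MB. The cells were human lung fibroblasts of the established line IMR90, labelled as wildtype, and total RNA was sequenced with a stranded kit. Cells received 5 µM Nutlin for 6 h or 375 µM 5-fluorouracil (5-FU) for 6, 12 or 24 h, and each of these groups had DMSO controls of its own drug and time, given in the volume of the drug. Untreated cells had fresh medium 12 h before extraction. Each of the 9 groups held 2 libraries, which the labels do not place in separate cultures, so that adjusted p values measure the spread between these libraries, which may be technical. By its title the series asks about repeat RNA and the tumour suppressor p53.

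A LINE-1 element is a retrotransposon that copies itself through an RNA, starting from a promoter at its 5′ end. Most insertions lack the 5′ part, and old insertions have lost the ability to move through mutations. The number in a name follows age within the branch, so that L1MA1 is young and L1MA10 is old, and the L1MB branch is older than L1MA. RNA counted over such a copy may start elsewhere, for example where the copy lies in an intron of a gene. Nutlin frees the transcription factor p53 from its inhibitor MDM2, and 5-FU disturbs RNA and DNA synthesis.

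Counts over these copies were spread thinly, with a few copies far above the rest. No library had a count at 39.7% of the copies for 5-FU and its controls and at 46.7% for Nutlin. The most counted copy alone held 4.92% of their counts in the 5-FU experiment and 2.27% in the other. The filter on low counts left 3065 copies for testing with 5-FU and 749 with Nutlin. Of a library's counts the copies held 1.65% to 2.76% with 5-FU and its controls. In the Nutlin table the share was 0.624% to 0.910%, and 1 copy of 7SL RNA took 60.4% to 66.3% of all counts. Library totals were 2412334 to 6290320 (5-FU) and 9109885 to 11880265 (Nutlin). Levels are therefore compared within a table only. The tables list repeats and not genes, so markers of fibroblasts or other cells were not analysed here, and in bulk RNA fewer cells of a type and less RNA per cell cannot be told apart.

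Median levels were highest in 6 of the 7 L1MB names and lowest in the young L1MA names. Per kilobase of annotated copies, L1MB7 had the highest median over the 14 libraries of the 5-FU table, at 1.08 CPM (counts scaled to library size; range 0.832 to 1.19). L1MB5 followed at 0.914 CPM per kb (0.786 to 0.961) and L1MB4 at 0.859 (0.751 to 0.973), and the ranges of these 3 names overlapped. L1MB8 (0.655), L1MB2 (0.562) and L1MB3 (0.517) came next, with ranges that overlap their neighbours in the order. The seventh, L1MB1, had 0.296 CPM per kb, below L1MA10, L1MA5, L1MA7 and L1MA9, and its range (0.230 to 0.370) overlaps those of the last 3. The L1MA names ranged from 0.462 CPM per kb in L1MA10 to 0.118 in L1MA3, 0.107 in L1MA1 and 0.0799 in L1MA2. The range of L1MB7 did not overlap that of L1MA10 (0.410 to 0.534), and that of L1MA10 did not overlap those of L1MA1 to L1MA3. In the Nutlin table the order was similar, from 0.379 CPM per kb in L1MB5 to 0.0261 in L1MA2. Fewer of the young copies carried any count, 834 of 3443 copies of L1MA1 against 8575 of 10185 of L1MB7. How the authors' counting shared reads between near-identical copies is not given in the sources used here, and its part in this order was not tested.

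**Figure D1:**
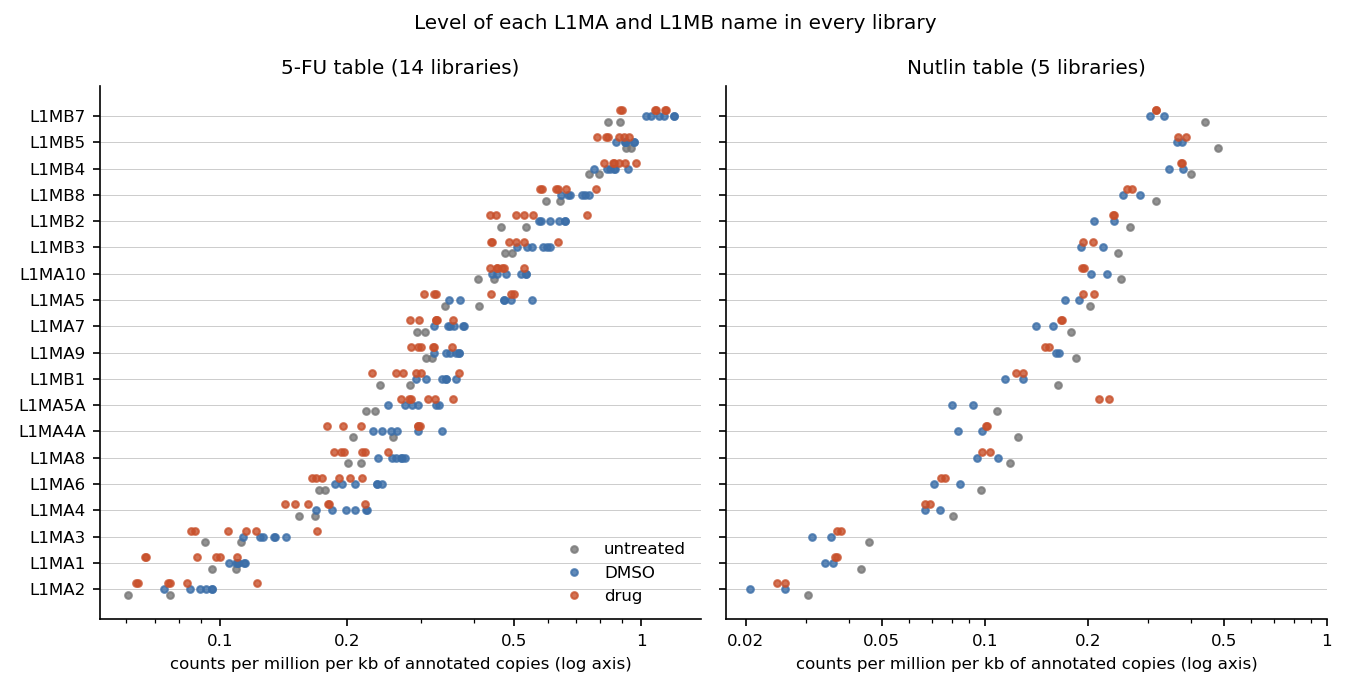
Level of each of the 19 names (vertical axis, ordered by the median in the 5-FU table) in every library, as CPM per kb of annotated copies on a log axis; grey points are untreated, blue DMSO and red drug libraries. By median, L1MB names other than L1MB1 lie above the L1MA names in the 5-FU table, but the ranges of L1MB2 and L1MB3 overlap that of L1MA10. L1MA5A stands to the right in the 2 Nutlin libraries.

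Single copies carried much of some names. The most counted copy of L1MB7 (chromosome 3, 8792110 to 8793919; all positions on hg19, the build in the submitters' processing notes) held 20.8% of that name's counts in the 5-FU table. It had 758 and 658 CPM in untreated cells, 1424 and 1601 with DMSO at 6 h, 1226 and 1279 with DMSO at 12 h, and 1408 and 1273 with DMSO at 24 h. A copy of L1MB5 (chromosome 4, 39124724 to 39127429) held 25.8% of its name, and a copy of L1MA4A (chromosome 7, 55524647 to 55528304) 21.3%. A 133 bp copy of L1MA5A (chromosome 12, 69237117 to 69237249) held 17.1% of its name's counts with 5-FU and 42.2% with Nutlin. Results for names are therefore given with and without the most counted copy. No annotation of hg19 was used, so the copies were not placed in genes.

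Nutlin at 6 h was compared with its DMSO to ask which copies and names changed when p53 is freed. Features with an adjusted p under 0.05 in edgeR's quasi-likelihood test are called. At the level of names, L1MA5A alone of the 19 was called, where 12.2% of all 1028 names tested were. L1MA5A had 104 and 90.55 CPM with DMSO and rose to 260.2 and 243.2 with Nutlin, with no overlap (log2 fold change 1.37 ± 0.08 SE, edgeR adjusted p 3.55e-14). Without its most counted copy the log2 fold change was 0.02 (adjusted p 0.949), and none of the 19 names was called, beside 0.919% of all names treated in the same way and 1 of the 19 at an unadjusted p under 0.05. The median log2 fold change of the 19 names was 0.05, beside 0.04 for all names. Leaving out DMSO replicate 1 gave 6 names called, all higher, beside 12.3% of all names higher. Library size as the only scaling gave 5 lower and 1 higher, beside 18.3% and 4.18% of all names, where the median of all names moved by -0.14.

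Among single copies, 49 rose and 29 fell with Nutlin out of 749 tested, which is 6.54% and 3.87%, beside 5.36% and 4.21% of all copies tested. With library size alone the split was 36 higher and 40 lower, beside 3.91% and 5.96% of all copies. DESeq2 called 24 higher and 12 lower, beside 2.65% and 1.79%. The L1MA5A copy on chromosome 12 had 9.29 and 7.40 CPM with DMSO and 7.37 in untreated cells, and rose to 169 and 153 with Nutlin (log2 fold change 4.27 ± 0.14 SE, edgeR adjusted p 2.51e-09). All 30 tested repeats of other kinds (outside L1MA and L1MB) within 10 kb of it were higher too, with a median log2 fold change of 4.78. A 3975 bp copy of the same name on chromosome 19 (44362766 to 44366740) rose from 3.03 and 2.92 to 10.1 and 10.7 CPM (log2 fold change 1.81 ± 0.23 SE, edgeR adjusted p 0.000518). An L1MA3 copy on chromosome 19 (11899394 to 11902105) rose from 2.05 and 1.98 to 9.17 and 6.76 CPM (log2 fold change 1.99 ± 0.29 SE, edgeR adjusted p 0.00144). The rule that named these copies required that their DMSO and Nutlin libraries do not overlap. An L1MB5 copy on chromosome 21 (44473012 to 44473559) rose from 26.9 and 24.2 to 58.2 and 55.4 CPM, and an L1MA7 copy on chromosome X (73219042 to 73220370) from 21.1 and 17.8 to 41.3 and 38.4. In untreated cells the last 2 had 33.2 and 27.0 CPM, between the DMSO and the Nutlin libraries.

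Copies that fell with Nutlin included a 7521 bp L1MA1 copy on chromosome 10 (91534305 to 91541825) and consensus positions 12 to 7714. It fell from 22.9 and 21.2 to 10.1 and 11.6 CPM (log2 fold change -1.03 ± 0.15 SE, edgeR adjusted p 0.00126), and untreated cells had 28.4. Neighbouring L1MA9 fragments on chromosome 2 fell as well. The fragment at 113493947 to 113494502 went from 13.2 and 15.6 to 3.61 and 5.43 CPM (log2 fold change -1.69, edgeR adjusted p 0.000757), and the one at 113494795 to 113495183 from 8.64 and 9.59 to 3.53 and 4.35 CPM (log2 fold change -1.22, edgeR adjusted p 0.00644). Their consensus positions, 5668 to 6274 and 5270 to 5667, adjoin. An L1MB5 copy on chromosome 6 (2888314 to 2889088) fell from 9.40 and 7.29 to 2.73 and 2.66 CPM (log2 fold change -1.62, edgeR adjusted p 0.00222). An L1MB8 copy on chromosome 10 (70196355 to 70196750) had 13 and 21 counts with DMSO and 0 in both Nutlin libraries, at least 5.73-fold lower against a floor of 3 counts per library.

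At 6 h of 5-FU few copies were called. None of the 19 names was called (6 at an unadjusted p under 0.05), as in 0.0% of all names, and DESeq2 also called 0. With only the libraries of this comparison in the fit, 14 names were called, all lower, beside 16.8% of all names lower and 2.35% higher in that fit. In the fit on all libraries without the most counted copies, 0 were called (0.0951% of all names, and 6 of the 19 at an unadjusted p under 0.05). Of the names, 18 of 19 lay below 0, beside 65.8% of all names, or 13 with TMM factors from all copies, beside 42.7%, which moved the median of all names by 0.12. Among single copies, 4 rose and 0 fell of 3065, beside 0.0896% higher and 0.011% lower of all copies. Fewer copies were called with either DMSO 6 h library left out, and the shares over all copies in those fits are not given here. The L1MA5A copy on chromosome 12 rose from 26.6 and 26.4 CPM to 100.3 and 102 (log2 fold change 1.93 ± 0.20 SE, edgeR adjusted p 0.000204). An L1MA2 copy on chromosome 3 (178721717 to 178729312), which at 7596 bp spans consensus positions 16 to 7723, rose from 3.33 and 2.93 to 15.9 and 22.4 CPM (log2 fold change 2.61 ± 0.38 SE, edgeR adjusted p 0.00234). An L1MB7 copy on chromosome 16 (88455450 to 88455994) rose from 17.9 and 13.7 to 63.2 and 78.1 CPM (log2 fold change 2.16 ± 0.26 SE, edgeR adjusted p 0.000353). An L1MB7 copy on chromosome 15 (32757808 to 32758111) was without a count in each DMSO 6 h library (0 and 0) and had 28 and 21 counts with 5-FU, at least 8.26-fold higher. That copy also had 0 counts in both DMSO 12 h libraries, but 33 and 23 in the DMSO 24 h libraries, and 1 and 0 in untreated cells. With 5-FU at 24 h it had 22 and 35 counts. Its call at 6 h was lost with either DMSO 6 h library left out.

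At 12 h of 5-FU the names were lower. Of the 19, 14 fell and 0 rose, beside 18.8% of all names lower and 16.9% higher. The fall took in 10 of the 12 L1MA names and 4 of the 7 L1MB names. L1MA1 went from 461 and 440 CPM with DMSO to 267 and 269 with 5-FU (log2 fold change -0.75 ± 0.10 SE, edgeR adjusted p 0.000192). L1MA5 went from 985 and 948 to 648 and 615 CPM (log2 fold change -0.61 ± 0.13 SE, edgeR adjusted p 0.00305). L1MA3 went from 1009 and 989 to 694 and 679 CPM (log2 fold change -0.54 ± 0.17 SE, edgeR adjusted p 0.0263). L1MB7 went from 5561 and 5403 to 4730 and 4688 CPM, a smaller difference (log2 fold change -0.22 ± 0.06 SE, edgeR adjusted p 0.0156). In none of these did the DMSO and drug libraries overlap. L1MB4 had 1615 and 1685 CPM with DMSO and 1783 and 1593 with 5-FU (log2 fold change 0.03), and L1MA5A, L1MA10, L1MB3 and L1MB8 were not called either.

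The calls at 12 h depended on the scaling. With TMM factors from all copies, 2 names (L1MA1 and L1MA5) were lower and 1 (L1MB4) higher, beside 5.29% and 28.5% of all names, and 13 of the 19 lay below 0 in place of 17, because the median of all names moved by 0.24. Relative to the median of all names, 17 of the 19 lay lower, and the median of the 19 minus that of all names was -0.31. A scaling adds the same amount to every name, so that these 2 values cannot depend on it. L1MA1 and L1MA5 were called lower under every alternative. Leaving out any 1 library of the comparison left fewer names called, and the shares over all names in those fits are not given here. Against the DMSO libraries of 6 h and 24 h in place of the DMSO 12 h libraries, 16 names were lower and 0 higher, beside 26.1% and 15.96% of all names. Without the most counted copy of each name 13 names were lower and 0 higher (17.2% and 8.18% of all names). L1MA5A was then called (log2 fold change -0.74, edgeR adjusted p 0.00209, in place of -0.25 and 0.0584), and L1MB5 and L1MB7 were not (-0.09 and -0.08).

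**Figure D2:**
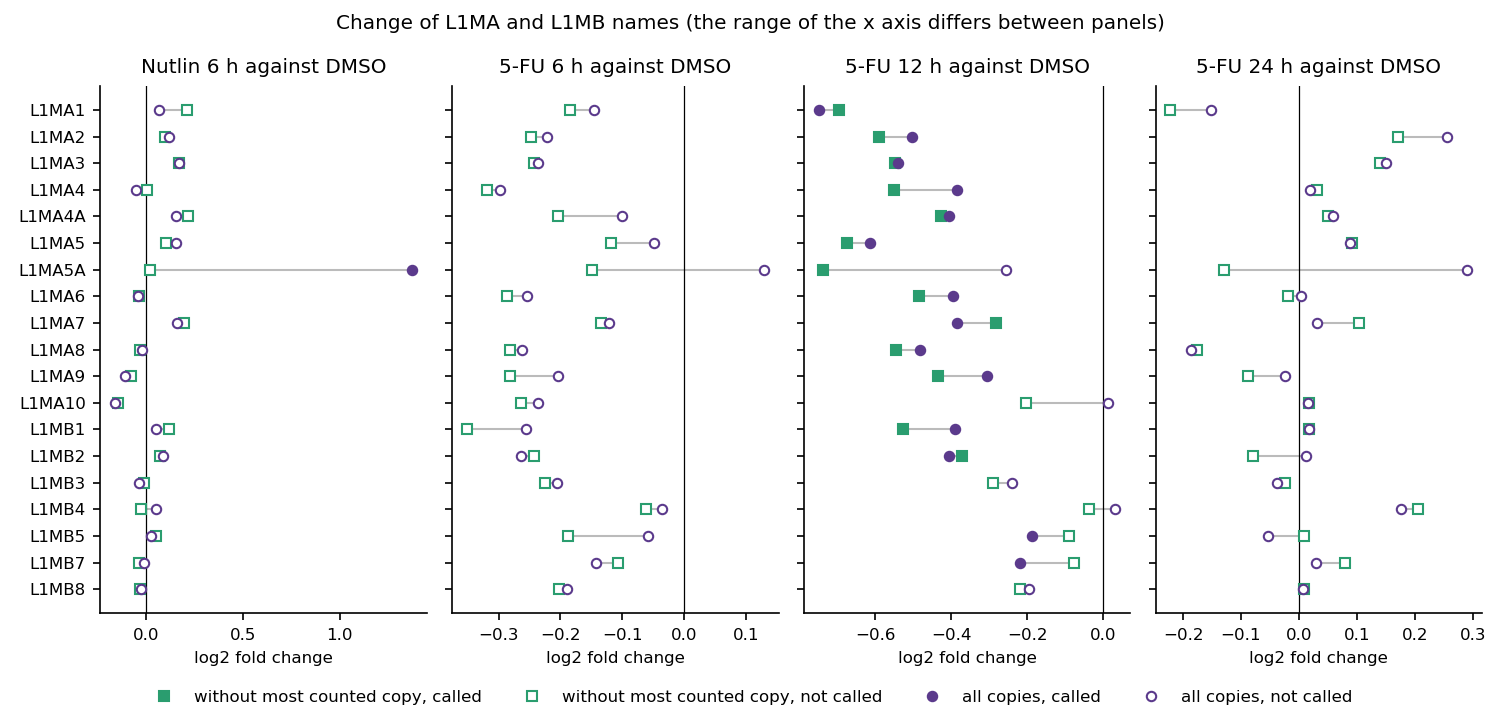
Log2 fold change of each name against its DMSO in 4 panels, with all copies (circles) and without the most counted copy (squares); filled symbols are called at an adjusted p under 0.05. L1MA5A moves from 1.37 to 0.02 with Nutlin, and at 12 h of 5-FU 14 names are called lower with all copies; with TMM factors from all copies 2 would be lower and 1 higher.

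Other L1 branches also had names that fell at 12 h. Under the same test 12 of 18 L1HS and L1PA names were lower and 1 higher, 4 of 8 L1PB, 10 of 11 L1MC, 2 of 6 L1MD (1 higher) and 21 of 27 L1ME. Of 4 L2 names, which are another LINE family, 0 were lower and 1 higher, and of 4 HAL1 names 1 was lower and 1 higher. The median log2 fold change was -0.38 for L1MA and L1MB, -0.42 for L1HS and L1PA, -0.42 for L1ME and -0.03 for L2, beside -0.07 for all names. With TMM factors from all copies 0 of the 18 L1HS and L1PA names were lower and 1 higher. The counts were 0 lower and 1 higher of 8 L1PB, and 2 lower and 0 higher of 11 L1MC. They were 1 lower and 2 higher of 6 L1MD, and 7 lower and 3 higher of 27 L1ME. HAL1 and L2 each had 0 lower and 2 higher of 4. Summed over all copies, L1MA fell from 9445 and 9063 CPM to 6987 and 6799, and L1MB from 15092 and 14673 to 13058 and 12779. These sums were given no test.

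Among single copies at 12 h, 100 rose and 174 fell of 3065 tested. This is 3.26% higher and 5.68% lower, beside 5.44% and 4.27% of all copies tested. TMM factors from all copies turned the split, to 172 higher and 124 lower, beside 8.17% higher and 3.001% lower of all copies. Library size as the only scaling gave 65 and 293, beside 3.23% and 7.39%. Leaving out any 1 library of the comparison left fewer copies called. The shares over all copies in those fits are not given here, so this is not read as particular to L1MA and L1MB. Against the DMSO libraries of 6 h and 24 h 160 copies were higher and 263 lower, beside 8.83% and 5.92% of all copies. Of the 100 that rose, 96 kept their direction against those libraries and 70 were called, and of the 174 that fell 172 kept it and 95 were called. Both comparisons use the same 5-FU 12 h libraries, by which these copies had been picked. Agreement in direction is therefore largely built in, and the same share over all called copies is not given here.

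Tested copies of 1000 bp or more had a median log2 fold change of -1.02 (1112 copies), those of 300 to under 1000 bp -0.35 (1438 copies), and those under 300 bp -0.03 (515 copies). The same medians over all tested repeats were -0.81, -0.07 and 0.17. The copies that fell had a median length of 1038.5 bp and those that rose 519.5 bp, where all tested L1MA and L1MB copies had 731 bp. Against the DMSO libraries of 6 h and 24 h the medians of the length classes were -1.03, -0.52 and -0.08. Over all tested repeats they were -0.96, -0.26 and 0.12. At 6 h the long copies also had the lowest median (-0.37, beside -0.33 over all tested repeats). At 24 h the classes lay between -0.04 and 0.00, beside -0.03 to 0.02 over all tested repeats. With Nutlin the order was the other way, with 0.28 in the longest and -0.14 in the shortest class. Over all tested repeats these classes had 0.09 and -0.01. These medians depend on the filter on low counts. A stricter filter of at least 10 counts in every library left 365 L1MA and L1MB copies. The 12 h values from the longest class to the shortest then became -0.50, -0.11 and 0.16, beside -0.29, 0.14 and 0.15 over all repeats. Those of 6 h became 0.06, 0.12 and 0.10, beside 0.02, 0.14 and 0.14. The longest class was then at 0.23 at 24 h and at 0.31 with Nutlin, beside 0.14 and 0.08. The length classes were chosen after the lengths of called copies had been seen, and a change of scaling adds the same amount to each class.

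**Figure D3:**
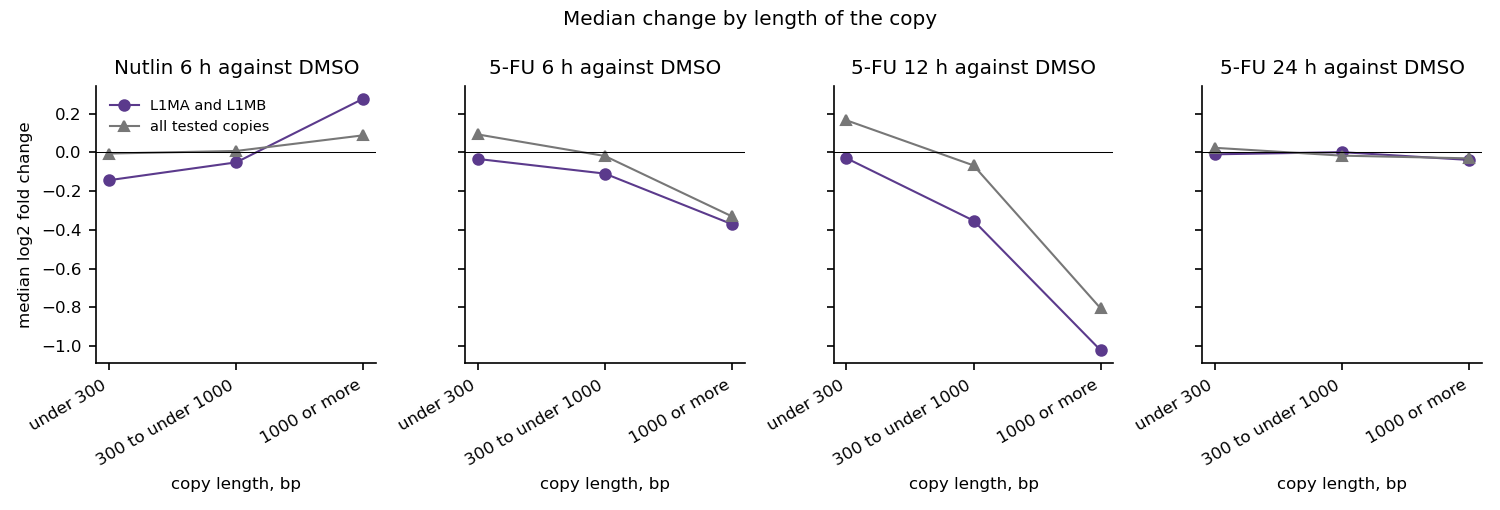
Median log2 fold change of tested copies in 3 length classes, for L1MA and L1MB (purple circles) and for all tested repeats (grey triangles), with a panel for each drug comparison. At 12 h of 5-FU the median of L1MA and L1MB copies goes from -0.03 under 300 bp to -1.02 at 1000 bp or more. With at least 10 counts in every library it goes from 0.16 to -0.50. Over all tested repeats the median goes from 0.17 to -0.81, or from 0.15 to -0.29 with that filter.

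Several copies stood out at 12 h. The copy of L1MB7 on chromosome 16 rose from 8.16 and 7.65 CPM to 170 and 162 (log2 fold change 4.39 ± 0.31 SE, edgeR adjusted p 2.30e-08), with all 14 tested neighbours within 10 kb higher. An L1MB8 copy on chromosome 14 (75912314 to 75913545) rose from 17.8 and 25.6 to 106 and 91.8 CPM (log2 fold change 2.19 ± 0.28 SE, edgeR adjusted p 3.98e-05). A copy of L1MB7 on chromosome 5 (162875174 to 162876978) rose from 13.7 and 16.1 to 60.9 and 61.6 CPM (log2 fold change 2.04 ± 0.25 SE, edgeR adjusted p 2.09e-05). Another L1MB7 copy, on chromosome 15 (67000809 to 67001281), rose from 6.30 and 1.53 to 29.4 and 39.2 CPM (log2 fold change 3.11). Its DMSO libraries of 6 h and 24 h had 6.44 to 12.7 CPM, and against those the log2 fold change was 1.94.

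Among those that fell at 12 h, an L1MB8 copy on chromosome 10 (50659157 to 50662326) went from 37.8 and 34.4 to 4.12 and 5.52 CPM (log2 fold change -2.90 ± 0.29 SE, edgeR adjusted p 2.45e-06). An L1MB3 copy on chromosome 19 (43676328 to 43678456) went from 28.9 and 42.5 to 6.17 and 7.26 CPM (log2 fold change -2.40 ± 0.28 SE, edgeR adjusted p 1.34e-05). An L1MB7 copy on chromosome 1 (21080216 to 21081778) went from 43.4 and 44.4 to 8.52 and 9.87 CPM (log2 fold change -2.25 ± 0.25 SE, edgeR adjusted p 1.02e-05). The most counted L1MB7 copy, on chromosome 3, went from 1226 and 1279 to 728 and 664 CPM (log2 fold change -0.85, edgeR adjusted p 0.0242), and 2 of its 8 tested neighbours shared its direction. An L1MA5A copy on chromosome 9 (69766256 to 69767641) had 49 and 67 counts with DMSO and 0 in both 5-FU libraries, at least 24.98-fold lower, and untreated cells had 0 and 11 counts. An L1MB2 copy on chromosome 7 (135414515 to 135414775) went from 21.1 and 32.9 to 2.06 and 4.36 CPM (log2 fold change -3.06). It had 3.78 to 11.4 CPM in the other DMSO libraries, and against the DMSO libraries of 6 h and 24 h its log2 fold change was -1.11 (adjusted p 0.044).

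At 24 h of 5-FU none of the 19 names was called (1 at an unadjusted p under 0.05, and 0 by DESeq2), beside 8.44% of all names. Without the most counted copies it was 0 too (0 at an unadjusted p under 0.05), beside 1.9% of all names. The 5-FU 24 h libraries differed from each other, with L1MA copies at 7502 and 10008 CPM in all and L1MB at 14764 and 16859. The DMSO 24 h libraries had 8028 and 8991 CPM of L1MA and 15058 and 16103 of L1MB. Replicate 2 had a count at 26002 of the L1MA and L1MB copies and replicate 1 at 15947. Without 5-FU replicate 1, 6 names were called, all higher, beside 16.5% of all names higher, and without replicate 2, 4 names, all lower, beside 8.63% lower.

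Among single copies at 24 h, of 3065 tested, 75 rose and 41 fell, or 2.45% and 1.34%, beside 2.42% and 1.82% of all copies. Library size alone gave 58 higher and 67 lower, beside 1.81% and 2.74% of all copies. Fewer copies were called with any 1 library of the comparison left out, and the shares over all copies in those fits are not given here. Here the chromosome 16 copy of L1MB7 rose from 8.05 and 10.5 to 188 and 123 CPM, and the L1MB8 copy on chromosome 14 from 13.9 and 18.1 to 102 and 60.1. The L1MA2 copy on chromosome 3 rose from 1.69 and 2.41 to 16.7 and 29.6 CPM (log2 fold change 3.48 ± 0.39 SE, edgeR adjusted p 8.77e-06). Another long L1MA2 copy, of 7685 bp on chromosome X (128306350 to 128314034), rose from 8.99 and 5.16 to 48.9 and 44.3 CPM (log2 fold change 2.72 ± 0.31 SE, edgeR adjusted p 1.22e-05). It had no tested repeat outside L1MA and L1MB within 10 kb.

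The L1MA1 copy on chromosome 10 fell from 65.5 and 50.2 to 7.18 and 7.90 CPM at 24 h (log2 fold change -2.93 ± 0.27 SE, edgeR adjusted p 9.60e-07). All 4 tested neighbours were lower. At the 6 h time the L1MA1 copy had 28.3 and 25.4 CPM with DMSO and 26.1 and 23.4 with 5-FU. By 12 h it was already called lower, at 35.6 and 40.9 CPM with DMSO and 17.9 and 11.6 with 5-FU (log2 fold change -1.37, edgeR adjusted p 0.00269). The L1MA9 fragment on chromosome 2 at 113493947 to 113494502 fell from 22.8 and 26.0 to 2.55 and 2.94 CPM (log2 fold change -3.13 ± 0.31 SE, edgeR adjusted p 2.03e-06). The fragment beside it fell from 21.3 and 21.2 to 2.78 and 3.72 CPM. An L1MB7 copy on chromosome 9 (36679316 to 36680245) fell from 12.5 and 10.3 to 1.16 and 0.619 CPM (log2 fold change -3.71 ± 0.43 SE, edgeR adjusted p 1.38e-05). That copy was also called lower at 12 h (log2 fold change -2.93, edgeR adjusted p 0.000235).

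**Figure D4:**
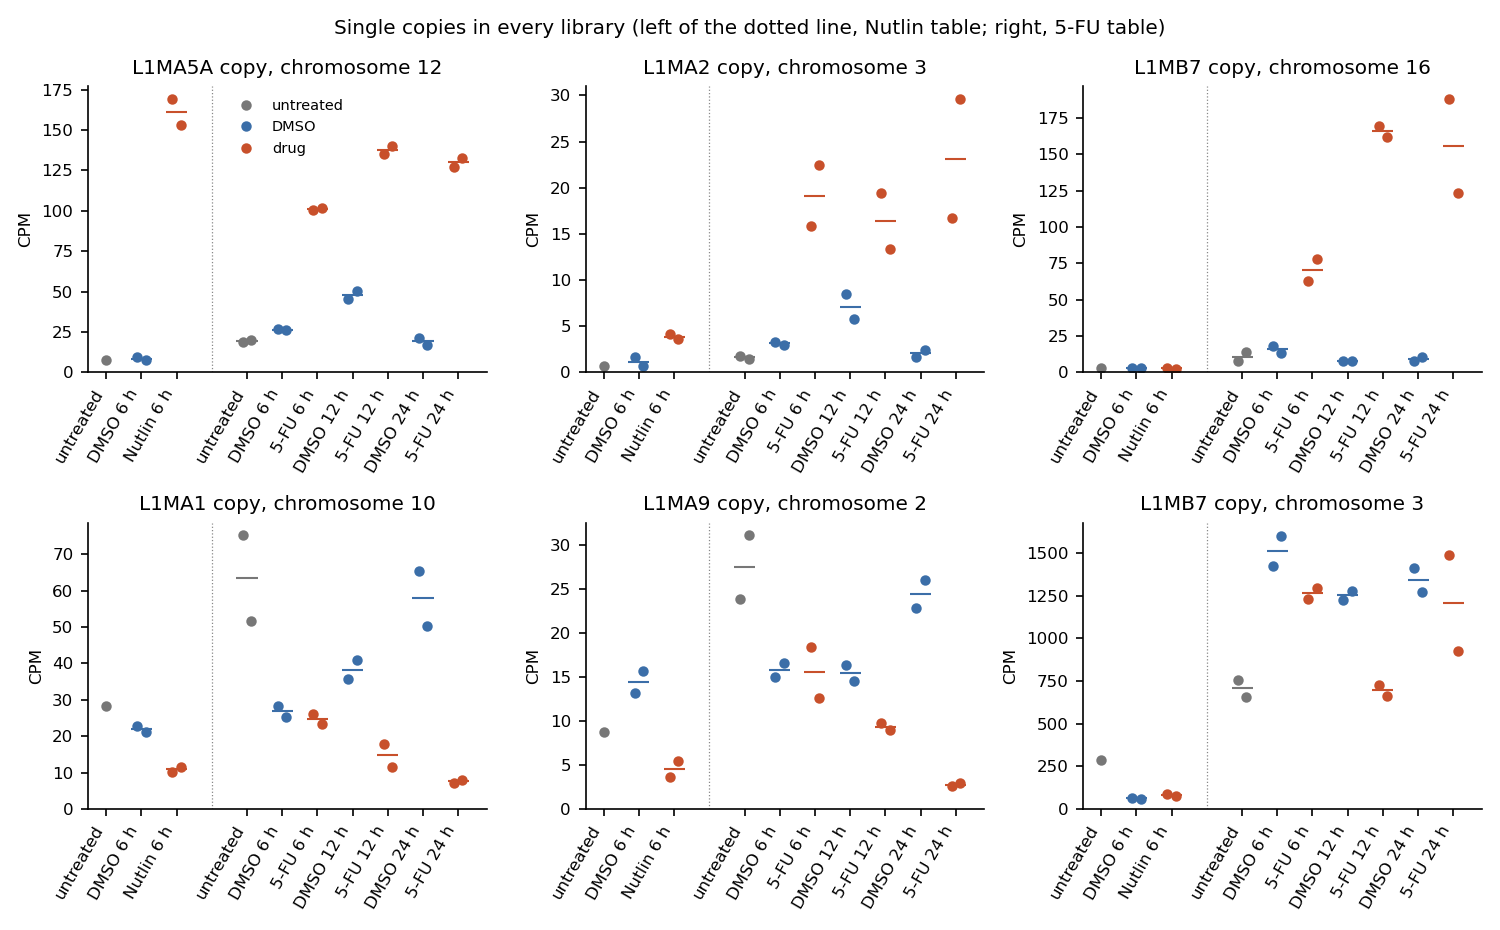
CPM of 6 copies in every library (points; bars are group means of 2 libraries), untreated in grey, DMSO in blue and drug in red, with the Nutlin table left of the dotted line and the 5-FU table right of it; each panel has its own axis from 0. The L1MA5A and L1MA2 copies are higher with both drugs, the L1MB7 copy on chromosome 16 with 5-FU, and the L1MA1 and L1MA9 copies are lower with Nutlin and with 5-FU at 24 h. The L1MA1 copy is also lower with 5-FU at 12 h.

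The effect of 5-FU at 24 h was set against its effect at 6 h as an interaction. Of 3065 copies 10 were called, 2 with a higher and 8 with a lower effect at 24 h, beside 0.0865% and 0.299% of all copies. None of the 19 names was called (0 at an unadjusted p under 0.05, and 0 by DESeq2), beside 1.21% of all names. Without 5-FU 24 h replicate 1 it was 13 names, all higher, beside 19.9% of all names higher. More copies were called without that library. Fewer were called without DMSO 24 h replicate 1, 5-FU 6 h replicate 1 or either DMSO 6 h library. The shares over all copies in these fits are not given here. The copies are given with their values among the results for a closer look.

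The comparisons were then set side by side. Each has DMSO libraries of its own. The L1MA5A copy on chromosome 12 and the L1MA2 copy on chromosome 3 were called in all 4 drug comparisons, both higher in each. How often this occurs among all repeats was not counted. With Nutlin the L1MA2 copy rose from 1.62 and 0.729 to 4.14 and 3.62 CPM (log2 fold change 1.72, edgeR adjusted p 0.0272). Its call at 6 h of 5-FU was lost without DMSO 6 h replicate 1 (adjusted p 0.0515), DMSO 6 h replicate 2 (0.112) or 5-FU 6 h replicate 2 (0.0606), and at 12 h its adjusted p was 0.0462. Calls at 12 h and 24 h of 5-FU shared 62 copies, 22.6% of the first and 53.4% of the second, all in the same direction. Over all copies the shares were 20.7% and 47.4%, with 98.4% of the shared calls in the same direction. Among the 743 copies tested in both tables, Nutlin and 5-FU at 24 h shared 21 (28.0% of each), 17 in the same direction, where all copies shared 23.5% and 26.5%, with 86.5% in the same direction. Nutlin and 5-FU at 12 h shared 24 (32.0% and 16.2%), of which 14 went the same way, where all copies shared 27.7% and 14.3%, with 64.6% in the same direction. The overlaps of L1MA and L1MB calls thus lay near those of all copies.

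Copies that moved the same way with both drugs included the L1MB7 copy on chromosome 5, with log2 fold changes of 1.29 with Nutlin, 2.04 at 12 h and 1.54 at 24 h. An L1MB3 copy on chromosome 15 (76231125 to 76234263) had 1.38, 0.88 and 1.45, and the L1MB7 copy on chromosome 1 had -0.94, -2.25 and -1.59, all called. The L1MB7 copy on chromosome 16 was at 2.70 and 2.92 CPM with DMSO and 3.35 and 2.29 with Nutlin (log2 fold change 0.03 ± 0.35 SE, edgeR adjusted p 0.981). Other copies went opposite ways. The L1MB2 copy on chromosome 11 (65198360 to 65199697) rose with Nutlin from 20.5 and 15.3 to 33.5 and 43.8 CPM (log2 fold change 1.10, edgeR adjusted p 0.00184) and fell at 12 h of 5-FU from 76.0 and 72.7 to 42.0 and 26.4 CPM (log2 fold change -1.12, edgeR adjusted p 0.0316). The L1MB5 copy on chromosome 21 was higher with Nutlin (1.15) and lower at 24 h of 5-FU (-0.85, adjusted p 0.0376). The L1MB5 copy on chromosome 6 was lower with Nutlin (-1.62) and higher at 12 h of 5-FU (1.43, adjusted p 0.0135), where its DMSO 12 h libraries were at 3.71 and 7.27 CPM and the other DMSO libraries at 9.12 to 11.7. Against the DMSO libraries of 6 h and 24 h its log2 fold change was 0.50 (adjusted p 0.211), so that its rise was not called there. The difference between the drugs was not tested, since they lie in separate tables.

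Most called copies moved with the repeats around them. Of the called L1MA and L1MB copies that had a tested repeat outside L1MA and L1MB within 10 kb, the median change of those neighbours had the same sign in 61 of 64 with Nutlin, 218 of 236 at 12 h and 101 of 106 at 24 h of 5-FU. Over all tested L1MA and L1MB copies the share was 71.1%, 70.0% and 69.1%. It was 94.7%, 89.3% and 93.2% over all called repeats set against repeats of another name, so that L1MA and L1MB are near the background there. In the interaction the sign was shared in 7 of 9, beside 93.0% over all called repeats. The L1MA5A copy on chromosome 9 differed from its 3 tested neighbours. At 24 h of 5-FU it had a log2 fold change of -5.77 and they a median of 3.98, and at 12 h their median was 0.0. Reads shared with neighbouring repeats and RNA that runs through several of them were not tested. The 78 copies called with Nutlin fell into 69 groups when copies within 10 kb of each other were joined, the 274 at 12 h into 236 and the 116 at 24 h into 96.

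**Figure D5:**
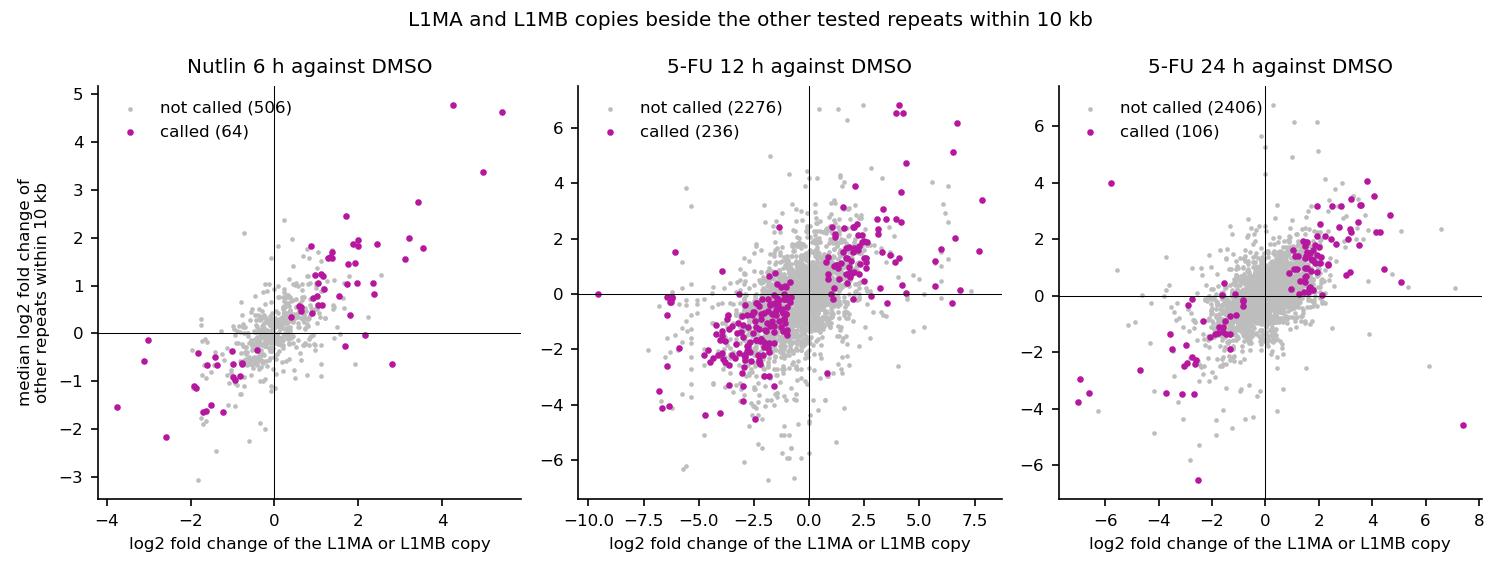
Log2 fold change of each tested L1MA or L1MB copy (horizontal axis) beside the median log2 fold change of tested repeats outside L1MA and L1MB within 10 kb (vertical axis), for Nutlin and for 5-FU at 12 h and 24 h; purple points are called. Called copies lie mostly in the quadrants where both have the same sign, 61 of 64 with Nutlin.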

How the data were processed

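The authors deposited raw counts per annotated repeat copy in 2 tables (18 samples, 9 groups of 2), and the unit was checked on the files. Per the submitters' processing notes, Trimmomatic 0.32, cutadapt 1.10, Bowtie2, edgeR, DESeq2 and hg19 were used; the counting program and its treatment of reads with several matches are not given in the sources used here. In the Nutlin table both untreated columns hold the same values (0 copies differ), so they count as 1 sample. Counts were tested per copy and summed per name with edgeR 4.0.16 (R 4.3.3, limma 3.58.1; glmQLFit, glmQLFTest, a mean per group, 1 fit for each table). Library size was the total of the table and TMM factors came from the copies passing filterByExpr, and the Benjamini-Hochberg adjustment ran over all features. The filter left 21328 copies and 1028 names in the Nutlin table and 63602 and 1078 in the 5-FU table. CPM use the TMM-scaled library size. DESeq2 1.42.0, other scalings, filters, a replicate block and left-out libraries were alternatives. With 2 libraries a group, small changes can be missed.

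Copies were named by rule: for each drug comparison up to 5 risen and 5 fallen with the smallest p among those called, changed at least 2-fold (absolute log2 fold change of at least 1) and without overlap; the most counted copy of each name; up to 10 copies called in the same direction with Nutlin and 5-FU; and up to 3 for each direction of the interaction. The other L1, HAL1 and L2 lists go by name prefix. Members and lists were chosen with earlier results of these data known. The SE of a log2 fold change is its size divided by the square root of the test's F. The procedure was tested on simulated data. It recovered fewer changes per copy than per name, fewest in the 5-FU table. Where the simulated spread followed the trend with abundance, false calls stayed near the threshold; in an earlier simulation with a spread of its own for each copy, a larger share of the calls was false, so the copies called here may hold more false calls than the adjusted p states. Tables and plots used Python 3.11.15, numpy 2.4.6, pandas 2.3.3 and matplotlib 3.10.9.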

Additional observations from a re-analysis of the deposited data

Results flagged for a closer look

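For 10 L1MA and L1MB copies the effect of 5-FU at 24 h differed from its effect at 6 h by the interaction test (edgeR, adjusted p under 0.05). For 2 of them the effect was higher at 24 h. The L1MB7 copy on chromosome 16 (88455450 to 88455994) had a difference of 1.90 on the log2 scale (SE 0.37, adjusted p 0.0205), between log2 fold changes of 2.16 at 6 h and 4.06 at 24 h. Its DMSO libraries were lower at 24 h, with 17.9 and 13.7 CPM at 6 h and 8.05 and 10.5 at 24 h. The L1MB8 copy on chromosome 14 (75912314 to 75913545) had a difference of 2.06 (SE 0.38, adjusted p 0.0113), with 26.8 and 31.4 CPM at 6 h of 5-FU and 102 and 60.1 at 24 h. With DMSO it had 26.6 and 21.5 CPM at 6 h and 13.9 and 18.1 at 24 h. The interaction calls of these 2 copies were lost under 6 and 4 of the alternatives.

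For 8 copies the effect was lower at 24 h. The L1MA1 copy on chromosome 10 (91534305 to 91541825) had a difference of -2.81 (SE 0.37, adjusted p 0.000387). Its DMSO libraries moved as well, from 28.3 and 25.4 CPM at 6 h to 65.5 and 50.2 at 24 h, while 5-FU libraries went from 26.1 and 23.4 to 7.18 and 7.90. The L1MA9 fragments on chromosome 2 had differences of -3.10 (113493947 to 113494502, adjusted p 0.000468) and -2.27 (113494795 to 113495183, adjusted p 0.0368). Their DMSO libraries were higher at 24 h too. The first went from 15.0 and 16.6 CPM with DMSO at 6 h to 22.8 and 26.0 at 24 h. The second went from 9.99 and 13.7 to 21.3 and 21.2. The L1MA9 copy on chromosome 7 (93508827 to 93509570) had -3.03 (adjusted p 0.00277), with 13.1 and 19.2 CPM at 6 h of 5-FU and 2.55 and 2.32 at 24 h. The L1MB7 copy on chromosome 9 (36679316 to 36680245) had -2.87 (adjusted p 0.0235).

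At 3 of the 8 the difference rests on libraries at or near 0, so that its fitted size depends on the prior count. The L1MB7 copy on chromosome 15 (32757808 to 32758111) had a fitted difference of -7.39 (adjusted p 0.00648), with 0 counts in both DMSO 6 h libraries and 33 and 23 in the DMSO 24 h libraries. The L1MA5A copy on chromosome 9 (69766256 to 69767641) had -5.96 (adjusted p 0.0139), with 1 and 0 counts at 24 h of 5-FU against 40 and 34 with DMSO, a ratio of 0.0140 (95% exact counting interval 0.00035 to 0.0804). The L1MA8 copy on chromosome 19 (21307336 to 21307762), chosen after its values were seen, had -3.86 (adjusted p 0.0285), with 1 and 3 counts at 24 h of 5-FU against 29 and 23 with DMSO, a ratio of 0.0796 (0.0209 to 0.216). These intervals cover counting error only.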

How the results depend on the processing

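The replicate block (same-numbered libraries as pairs, which nothing in the labels ties together; correlations of deviations -0.01, 0.00, -0.02 and 0.15) gave 67, 4, 249, 103 and 9 copies and 1, 0, 11, 0 and 0 names for Nutlin, 5-FU at 6, 12 and 24 h and the interaction. DESeq2 called 36 copies with Nutlin in place of 78, 7 in place of 4 at 6 h and 16 in place of 10 in the interaction. With at least 10 counts in every library, 130 of 365 copies tested were called at 12 h and 71 at 24 h. The main fit called 274 and 116 of 3065, so that a lower count there is not a lower share. With no filter it was 109 and 67 copies. With only the libraries of the comparison it was 65 copies at 24 h, 5 in the interaction and 14 names at 6 h. The counts in this paragraph stand without the share over all features and are not read as particular to L1MA and L1MB. The DMSO 6 h and 24 h libraries as control gave 423 copies at 12 h. Library size alone called 6 names with Nutlin, and leaving out the most counted copy 0. TMM factors from all copies called 3 names at 12 h and 1 at 24 h, and turned the log2 fold change of L1MB5 to 0.0531 and of L1MB7 to 0.0219 at 12 h. Without 5-FU 24 h replicate 2 or 1, L1MB2 at 24 h was -0.30 or 0.27. Without 1 library at a time (a lone library is then assumed to vary like the other groups), copies called were 66 to 88, 2 to 4, 83 to 126, 43 to 110 and 4 to 20, and names 1 to 6, 0, 4 to 7, 0 to 6 and 0 to 13, in the same order. Of 39 results for single copies, 35 kept their call under every alternative and all 39 their direction. These 39 were picked for the smallest p, so they do not measure how stable the calls of copies are. Of 15 names called, 2 kept the call and 13 the direction. A further 50 results for names not called were called under at least 1 alternative. Apart from the shifts named here, the cause of these changes was not tested. Depth limits most copies, which were not tested for low counts.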

Other observations

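At the most counted L1MB7 copy (chromosome 3, 8792110 to 8793919) untreated cells were below DMSO in the 5-FU table, with 758 and 658 CPM against 1226 to 1601 in the 6 DMSO libraries, and above DMSO in the Nutlin table, with 287 CPM against 61.8 and 60.1. By their labels the untreated cells of both tables are the same samples, while the DMSO libraries are different ones. CPM are scaled within each table, and the difference was not tested.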
